A study of Homo sapiens with 6 samples.

Results

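The genes described here are nuclear genes whose products work in mitochondria. Mitochondria keep a small genome of their own, but nearly all of their proteins are encoded in the nucleus, made in the cytosol and imported. These nuclear genes supply the ribosomal proteins and tRNA synthetases that translate the mitochondrial mRNAs, assembly factors of the respiratory chain, the import and proteolysis machinery, and the enzymes and carriers of the matrix and inner membrane. From the deposited table of 2128 genes, of which 1841 were protein-coding, 44 protein-coding genes were found by annotation words. These words were mitochondrial inner membrane, mitochondrial matrix or mitochondrial translation in the ontology text, or mitochondrial in the gene description. Carriers with names starting SLC and PDK4, 6 of the 44, were set aside, which left 38 members. The annotation words used no expression value, but they were applied to the listed genes only. Whether expression entered the choice of the listed genes is not known here, and nearly all of them differed between the groups, as given below. If the list was chosen by such differences, the adjusted p-values given below are not separate evidence of a difference. By description 14 of the members were found, and by ontology text alone 24. They comprised 7 genes of the ribosome and tRNA synthetases, 3 of the respiratory chain, 3 of import and protein quality, and 25 of metabolism and other functions.

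The libraries, 3 titled shGPER and 3 titled shControl, are RNA-seq of SNU668, a human gastric carcinoma line labelled as signet ring cells. The shGPER cells are labelled as a GPER knockdown, and sh is the usual prefix of a short hairpin RNA. GPER1 encodes a membrane receptor for estrogen that signals through G proteins. The shControl cells are labelled wild type, so whether they carried a control hairpin is uncertain. Neither the number of hairpins nor separate cultures behind the 3 libraries are given, so a p-value here covers library-to-library spread, which may be technical. Expression was deposited as TPM, a transcript abundance that corrects for transcript length and library total and keeps no read count, so the depth is unknown.

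GPER1 had 1.83, 2.41 and 2.47 TPM in shGPER libraries, against 10.41 to 11.04 TPM in shControl libraries, so 20.7% of the control mean was left. The listed genes summed to 4.66 to 4.91% of all TPM in shGPER libraries and to 6.12 to 6.42% in shControl libraries, and the rest of each transcriptome was not analysed here. The 3 values of one group lay wholly above those of the other for 95.3% of all listed genes and 97.4% of those tested, against which any call on the members has to be read. Of the gastric epithelial marker list, 2 of 9 genes were listed, CDH1 and TFF1, which summed to 0.680 to 3.02 TPM in shGPER libraries and 5.08 to 6.67 TPM in shControl libraries. Neuroendocrine markers, 4 of 5 listed, summed to 64.2 to 65.3 TPM in shGPER libraries and 6.82 to 7.41 TPM in shControl libraries. Fibroblast markers, 4 of 5 listed, summed to 31.9 to 33.2 TPM in shGPER libraries and 7.02 to 9.91 TPM in shControl libraries, mostly from COL1A1 in shGPER libraries, while DCN and LUM fell. Endothelial markers, 2 of 3 listed, summed to 7.52 to 8.71 TPM in shGPER libraries and 2.09 to 2.52 TPM in shControl libraries. The higher sum was mostly from CDH5, while ERG had overlapping groups and was not called (limma, adjusted p = 0.218). No leukocyte marker was listed, and no listed marker was at 0 in all libraries. The part of these shifts in the members' values was not tested, and in bulk RNA fewer cells of a type and less RNA per cell cannot be told apart.

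Promoters of nuclear genes for mitochondrial proteins are known for binding sites of NRF1, nuclear respiratory factor, and of the ETS factor GABPA. The 250 bases before the RefSeq start (GRCh38.p14) are shown for 4 members with an NRF1 core, a pair that rose and a pair that fell in shGPER cells. Each is written 5′ to 3′ on the gene's strand, with matches to the NRF1 core (any base allowed at 1 position, either strand) and to the ETS core CCGGAAG (either strand, seen as its reverse complement in FMC1) in capitals. The longer runs of capitals are the NRF1 core and the shorter run in FMC1 is the ETS core. LONP1 is at chr19:5720453-5720702 on the minus strand, FMC1 at chr7:139340222-139340471, IARS2 at chr1:220093882-220094131 and TFAM at chr10:58385160-58385409, the last 3 on the plus strand. RefSeq gives some genes several starts, and by GENCODE 29 the NRF1 cores printed for FMC1, IARS2 and TFAM lie inside the annotated gene, while that of LONP1 lies before it.
LONP1: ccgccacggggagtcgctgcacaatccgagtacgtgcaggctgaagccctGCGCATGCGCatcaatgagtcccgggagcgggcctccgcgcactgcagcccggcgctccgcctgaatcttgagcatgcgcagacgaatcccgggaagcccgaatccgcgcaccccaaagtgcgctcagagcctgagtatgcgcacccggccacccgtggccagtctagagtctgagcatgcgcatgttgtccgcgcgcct
FMC1: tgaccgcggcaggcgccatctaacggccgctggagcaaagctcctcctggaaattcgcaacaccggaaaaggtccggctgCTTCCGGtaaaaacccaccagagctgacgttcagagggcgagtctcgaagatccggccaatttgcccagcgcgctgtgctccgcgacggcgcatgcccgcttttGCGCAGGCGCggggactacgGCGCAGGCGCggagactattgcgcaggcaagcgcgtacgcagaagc
IARS2: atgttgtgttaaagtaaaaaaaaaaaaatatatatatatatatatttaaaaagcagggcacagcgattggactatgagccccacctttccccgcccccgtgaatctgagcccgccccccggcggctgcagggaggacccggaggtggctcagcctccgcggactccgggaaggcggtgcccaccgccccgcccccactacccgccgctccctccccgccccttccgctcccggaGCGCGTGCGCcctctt
TFAM: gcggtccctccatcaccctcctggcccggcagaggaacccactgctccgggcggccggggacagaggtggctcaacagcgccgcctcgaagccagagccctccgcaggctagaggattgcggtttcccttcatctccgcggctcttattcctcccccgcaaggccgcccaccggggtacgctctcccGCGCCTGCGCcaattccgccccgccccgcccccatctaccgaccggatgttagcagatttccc
LONP1 and FMC1 rose and IARS2 and TFAM fell, as given below, so the core was in windows of members of both directions. RefSeq windows were found for 34 of the 38 members, and a gene was counted when any of its windows held the core. The NRF1 core was in 4 of these 34 (11.8%), against 6.20% of 27305 RefSeq genes of all kinds, and the ETS core was in 9 of 34 (26.5%), against 10.2%. By direction the ETS core was found in 4 of 11 members that rose and 5 of 19 that fell, and the NRF1 core in 2 of 11 and 2 of 19. The YY1 core, searched in the same way, was in 0 of 34, against 0.626% of RefSeq genes. No NRF1 match in a member overlapped an ETS match. The shares were not corrected for base composition, and a match describes letters in a window, not an occupied site.

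Tests covered the 35 members with 1 TPM or more in 3 or more of the 6 libraries. After the knockdown 11 members rose, 23 fell and 1 was not called (limma, adjusted p under 0.05). Of all 1651 tested genes 98.4% were called, 47.8% higher and 50.6% lower, so the number of members called was at the background of the table. Among the members 65.7% fell and 31.4% rose. The median difference of the tested members was -0.82 on the log2(TPM + 1) scale, beside -0.49 for all tested genes. On that scale 10 members fell at least 2-fold and 7 rose at least 2-fold, beside 24.2% and 32.0% of all tested genes. The 38 members summed to 547.5, 561.6 and 557.6 TPM in shGPER libraries, against 788.8, 784.1 and 777.0 TPM in shControl libraries. The sum of all listed genes was lower in shGPER libraries too, and the members' share of it was 1.13 to 1.18% in shGPER libraries and 1.23 to 1.27% in shControl libraries. Centring each library on its median raised every difference by 0.15, and no called member changed direction under centring or quantile normalization. The two-sided exact permutation test of 3 against 3 libraries cannot go below p = 0.1, the value it gave for each member whose groups did not overlap.

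**Figure D1:**
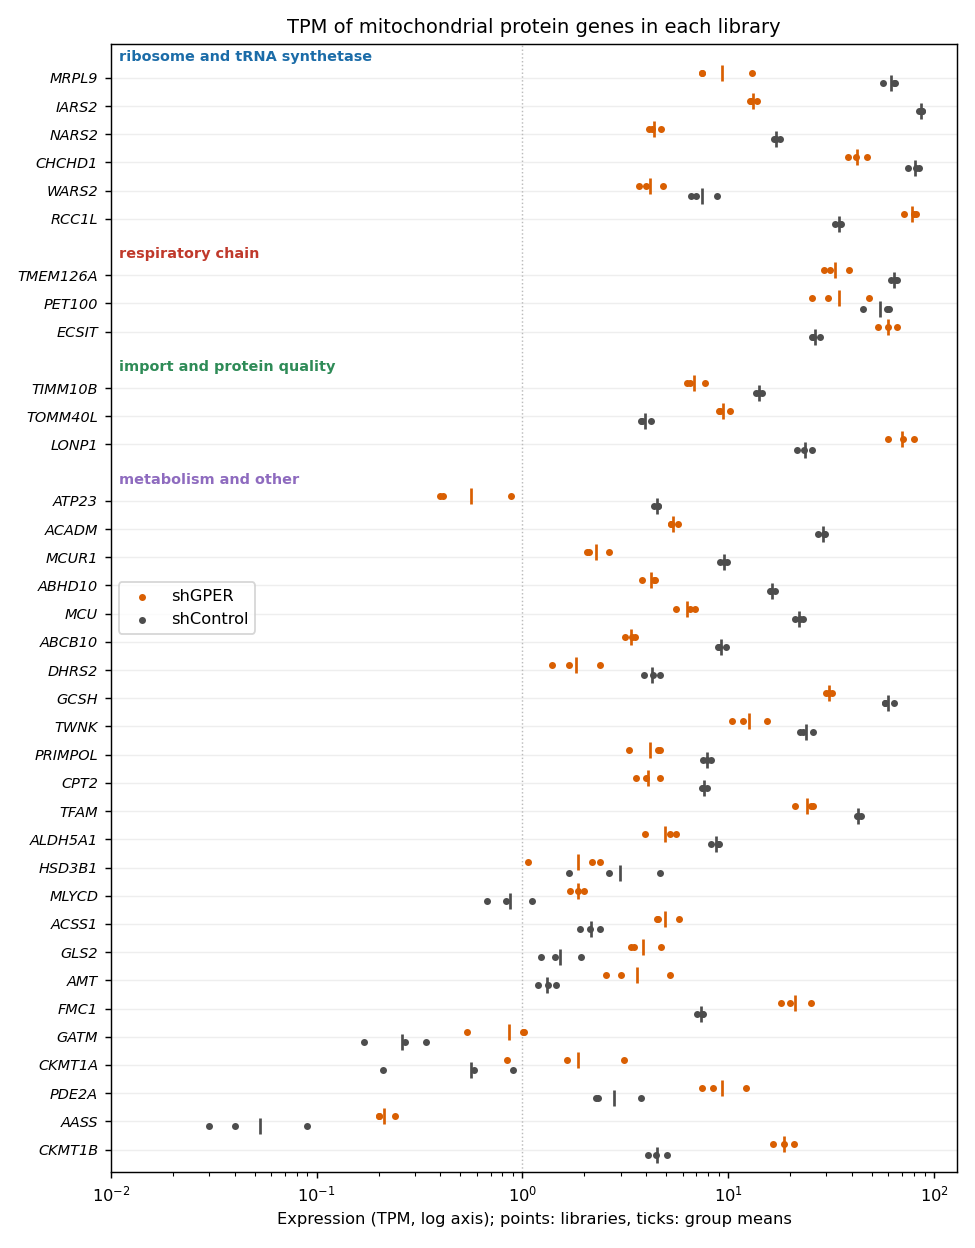
TPM of 36 of the 38 members in each library on a log axis, with shGPER points (orange) above shControl points (grey) in each row and ticks at group means; the dotted line marks 1 TPM. In 20 rows the shGPER points lie wholly below the shControl points, in 13 wholly above, and in 3 (PET100, HSD3B1 and CKMT1A) they overlap.

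The mitochondrial translation genes included the deepest falls on the log2(TPM + 1) scale, those of MRPL9 and IARS2. MRPL9, a protein of the large subunit of the mitochondrial ribosome, had 7.49, 13.09 and 7.43 TPM in shGPER libraries, against 64.32, 63.85 and 56.50 TPM in shControl libraries. The groups lay far apart, though shGPER library 2 stood well above the other shGPER libraries. The difference, on the log2(TPM + 1) scale as in all that follow, was -2.64 (SE 0.19; limma, adjusted p = 2.74e-06), with 15.2% of the control mean left. CHCHD1, a protein of the small subunit, had 47.49, 41.63 and 38.15 TPM in shGPER libraries, against 81.90, 84.87 and 75.12 TPM in shControl libraries. Its difference was -0.91 (SE 0.09), so both ribosomal proteins fell but by unlike amounts. The ratio of CHCHD1 to MRPL9 TPM was 4.88 ± 1.59 in shGPER libraries and 1.31 ± 0.0324 in shControl libraries (SD, n = 3 each).

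Mitochondrial tRNA synthetases join an amino acid to its tRNA in the matrix, and IARS2, NARS2 and WARS2 of this group fell. In their range of transcript GC content (39.8 to 47.9%) 73.0 to 90.2% of all tested genes fell. IARS2, which loads isoleucine, had 12.79, 12.93 and 13.78 TPM in shGPER libraries, against 84.34, 87.51 and 87.47 TPM in shControl libraries. Its libraries were tight within each group, and the difference was -2.63 (SE 0.06; adjusted p = 4.32e-08). NARS2, for asparagine, had 4.14, 4.25 and 4.72 TPM in shGPER libraries, against 17.76, 16.67 and 16.99 TPM in shControl libraries, a difference of -1.76 (SE 0.08). WARS2, for tryptophan, changed less than these, with 4.82, 3.70 and 4.00 TPM in shGPER libraries, against 6.98, 8.83 and 6.59 TPM in shControl libraries. Its groups did not overlap and its difference was -0.71 (SE 0.13; adjusted p = 0.000909). NARS2 averaged 4.37 ± 0.308 TPM and WARS2 4.17 ± 0.580 TPM in shGPER libraries, within each other's spread, against 17.1 ± 0.560 TPM for NARS2 and 7.47 ± 1.20 TPM for WARS2 in shControl libraries (SD, n = 3 each).

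RCC1L, an inner membrane protein that acts in assembly of the mitochondrial ribosome, went against the other 6 genes of this class. It had 71.63, 82.01 and 80.12 TPM in shGPER libraries, against 34.89, 35.36 and 32.97 TPM in shControl libraries. The groups did not overlap and RCC1L rose by 1.15 (SE 0.07; adjusted p = 1.15e-06). When each library's trend with transcript GC content was removed, MRPL9, IARS2 and NARS2 stayed lower (-2.87, -1.73 and -0.91) and RCC1L stayed higher (0.37). CHCHD1 and WARS2 then lost their call, with adjusted p of 0.0966 and 0.857.

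The respiratory chain passes electrons through large inner membrane complexes that need dedicated assembly factors, and all 3 members of this class are such factors. Of these, 1 rose and 2 fell. TMEM126A, an assembly factor of complex I, had 38.51, 31.33 and 29.37 TPM in shGPER libraries, against 64.57, 66.12 and 61.95 TPM in shControl libraries. ECSIT, which acts in complex I assembly and also as an adaptor of Toll-like receptor signalling, had 53.68, 59.51 and 66.35 TPM in shGPER libraries, against 25.70, 25.51 and 27.85 TPM in shControl libraries. Both pairs of groups were well separated and moved in opposite directions, with differences of -0.94 (SE 0.10) for TMEM126A and 1.15 (SE 0.09) for ECSIT. The ratio of ECSIT to TMEM126A TPM was 1.85 ± 0.435 in shGPER libraries and 0.411 ± 0.0338 in shControl libraries (SD, n = 3 each).

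PET100, a chaperone of cytochrome c oxidase, complex IV, had 48.07, 30.49 and 25.58 TPM in shGPER libraries, against 60.22, 45.03 and 58.86 TPM in shControl libraries. The groups overlapped, since shGPER library 1 lay above shControl library 2. Its difference of -0.68 (SE 0.21; adjusted p = 0.0141) was called but lost its call after median centring (adjusted p = 0.0588) and after quantile normalization (0.101), and the exact permutation test gave p = 0.2. PET100 overlaps another annotated gene on its strand, AC008763.2, which shares 10.6% of its 31-nt words. Without the GC trend TMEM126A was at -0.03 (adjusted p = 0.79), ECSIT at 0.19 (0.0162) and PET100 at -0.97 (0.0105).

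The 3 members of import and protein quality control included 2 that rose and 1 that fell. LONP1, the ATP-dependent Lon protease of the matrix, had 59.79, 70.73 and 80.18 TPM in shGPER libraries, against 21.69, 25.62 and 23.41 TPM in shControl libraries. All shGPER libraries were at least 2-fold above all shControl libraries, and LONP1 rose by 1.53 (SE 0.11; adjusted p = 2.98e-06). TOMM40L, a paralogue of the outer membrane import channel TOMM40, had 9.0, 10.25 and 9.09 TPM in shGPER libraries, against 3.75, 4.23 and 3.82 TPM in shControl libraries, a difference of 1.08 (SE 0.10). TIMM10B, a small protein of the TIM22 complex that inserts carriers into the inner membrane, had 6.55, 7.71 and 6.30 TPM in shGPER libraries, against 14.05, 13.67 and 14.67 TPM in shControl libraries. TIMM10B fell by 0.95 (SE 0.09), and its groups did not overlap. These 3 genes kept their call without the GC trend, at 0.56 for LONP1, 0.78 for TOMM40L and -1.33 for TIMM10B. TIMM10B overlaps a further gene on its strand, which shares 13.4% of its 31-nt words.

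**Figure D2:**
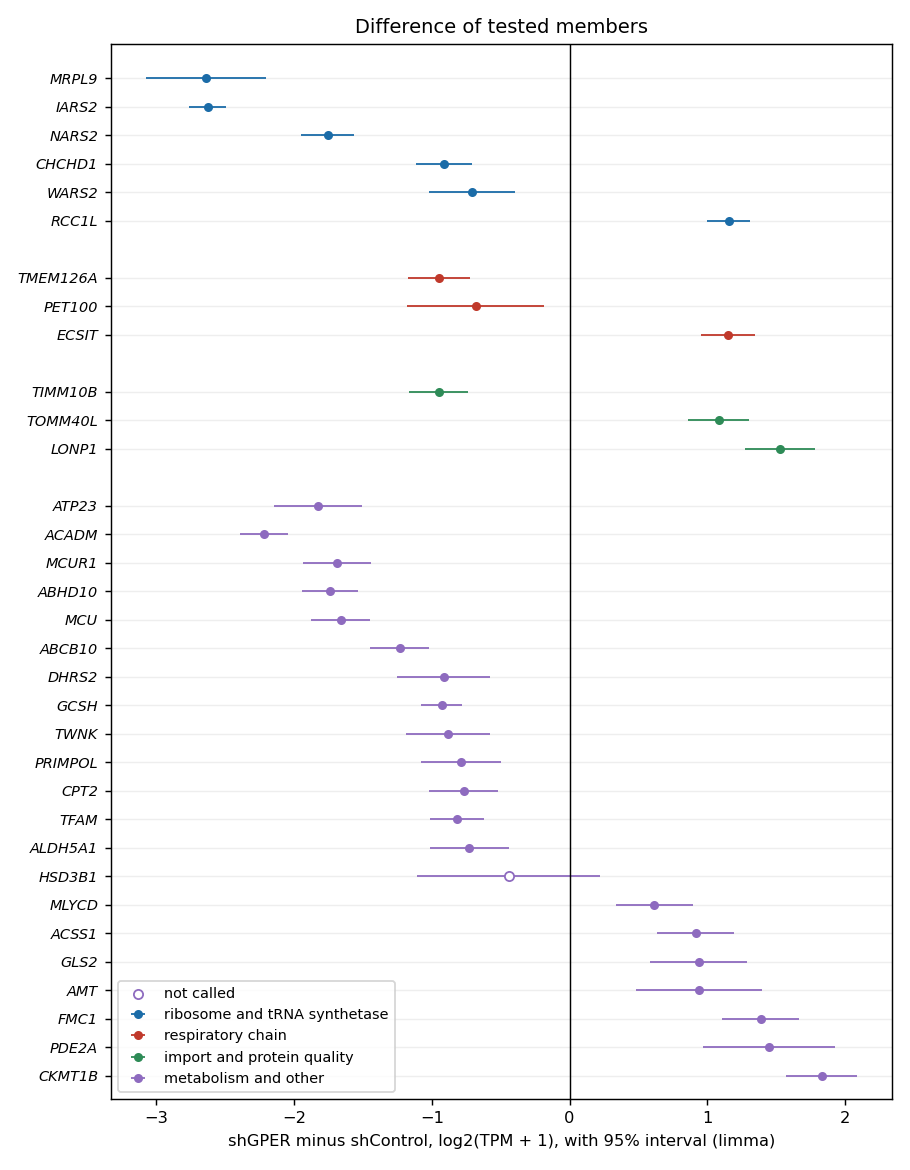
Difference between shGPER and shControl for 33 of the 35 tested members on the log2(TPM + 1) scale, with the 95% interval of the limma fit; classes are coloured and the open circle is HSD3B1, which was not called. MRPL9 and IARS2 stand farthest to the left at -2.64 and -2.63 and CKMT1B farthest to the right at 1.83; after quantile normalization MLYCD and PET100 were not called.

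Both members whose roles in ATP synthase assembly are known from yeast moved in opposite directions. ATP23, a metallopeptidase, had 0.88, 0.41 and 0.40 TPM in shGPER libraries, against 4.55, 4.58 and 4.36 TPM in shControl libraries. It was under 1 TPM in all shGPER libraries, with 12.5% of the control mean left, and passed the filter only through the shControl libraries, so its fall (-1.83, SE 0.14, and -1.01 without the GC trend) was fixed by the filter. FMC1 had 19.98, 25.31 and 17.96 TPM in shGPER libraries, against 7.46, 7.55 and 7.08 TPM in shControl libraries. FMC1 rose by 1.39 (SE 0.12; adjusted p = 8.68e-06) and its groups lay apart. FMC1 shares 32.3% of its 31-nt words with other genes. Among these is a readthrough transcript into LUC7L2, listed as FMC1-LUC7L2 at 6.39, 4.38 and 5.69 TPM in shGPER libraries and 0.36, 1.15 and 2.46 TPM in shControl libraries. How reads were divided between the pair is uncertain.

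Calcium enters the matrix through the uniporter, and both of its members in the table fell by similar amounts. MCU, the pore subunit, had 6.53, 5.55 and 6.90 TPM in shGPER libraries, against 21.04, 22.24 and 23.09 TPM in shControl libraries. MCUR1, a regulator of the uniporter, had 2.07, 2.11 and 2.64 TPM in shGPER libraries, against 9.59, 9.11 and 9.92 TPM in shControl libraries. The shControl libraries lay more than 2-fold above the shGPER libraries for both genes, with differences of -1.66 (SE 0.09) for MCU and -1.69 (SE 0.11) for MCUR1. The ratio of MCU to MCUR1 TPM was 2.80 ± 0.308 in shGPER libraries and 2.32 ± 0.124 in shControl libraries (SD, n = 3 each). At the GC content of MCU and MCUR1 (44 and 44.5%) 85.2% of all tested genes fell. Without the GC trend both stayed lower, at -0.86 and -0.92.

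The 3 members that maintain or transcribe mitochondrial DNA all fell. TFAM, which packages mitochondrial DNA and starts its transcription, had 21.01, 25.86 and 25.22 TPM in shGPER libraries, against 43.97, 42.80 and 42.09 TPM in shControl libraries. TWNK, the replicative helicase Twinkle, had 10.48, 11.80 and 15.50 TPM in shGPER libraries, against 25.84, 23.20 and 22.41 TPM in shControl libraries. PRIMPOL, a primase and polymerase that restarts stalled replication in nucleus and mitochondria, had 4.56, 3.30 and 4.66 TPM in shGPER libraries, against 8.21, 7.86 and 7.58 TPM in shControl libraries. No library of one group overlapped the other, and the differences were close together, at -0.82 (SE 0.09) for TFAM, -0.88 (SE 0.13) for TWNK and -0.79 (SE 0.13) for PRIMPOL. Of all tested genes 50.6% fell. At the GC content of TFAM and PRIMPOL (39.8 and 40.5%) 90.2 to 94.5% of all tested genes fell. At that of TWNK (52.6%) the share was 44.2%. PRIMPOL overlaps CENPU on the opposite strand and TWNK overlaps MRPL43 there, and whether counting used strand is not known. Members of other groups overlap annotated genes too. For example, LONP1 (RPL36), TOMM40L (NR1I3), MRPL9 (OAZ3) and GLS2 (SPRYD4) do so on the opposite strand. MRPL9, ECSIT and ACADM overlap further genes on their own strand. Without the GC trend TWNK, of TFAM, TWNK and PRIMPOL, stayed lower (-0.96). TFAM and PRIMPOL were then at 0.10 and 0.12 (adjusted p = 0.333 and 0.454), not called in either direction.

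ABCB10, an ATP-binding cassette transporter of the inner membrane that acts in heme synthesis, had 3.54, 3.15 and 3.39 TPM in shGPER libraries, against 8.93, 9.02 and 9.78 TPM in shControl libraries. Every shGPER library was less than all shControl libraries, and the difference was -1.23 (SE 0.09; adjusted p = 3.68e-06), or -0.51 without the GC trend. ABCB10 shares 8.79% of its 31-nt words with a pseudogene copy.

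Among 4 genes of fatty acid and acyl-CoA metabolism 2 fell and 2 rose. ACADM, the medium-chain acyl-CoA dehydrogenase that opens each round of beta-oxidation for such chains, had 5.72, 5.25 and 5.26 TPM in shGPER libraries, against 27.45, 29.37 and 29.63 TPM in shControl libraries. On the log2(TPM + 1) scale it had the deepest fall outside the translation genes, -2.22 (SE 0.08; adjusted p = 1.33e-07), with 18.8% of the control mean left and -1.31 without the GC trend. CPT2, which hands imported acyl groups from carnitine to coenzyme A, had 3.58, 3.99 and 4.68 TPM in shGPER libraries, against 7.54, 7.44 and 7.90 TPM in shControl libraries, a difference of -0.77 (SE 0.11). ACSS1, which activates acetate, had 4.58, 4.50 and 5.74 TPM in shGPER libraries, against 2.38, 2.14 and 1.91 TPM in shControl libraries, a difference of 0.91 (SE 0.12), or 0.34 without the GC trend (adjusted p = 0.0234). MLYCD, malonyl-CoA decarboxylase, was low in both groups, at 1.70, 2.00 and 1.86 TPM in shGPER libraries against 1.11, 0.67 and 0.83 TPM in shControl libraries. Of the shControl libraries library 1 alone reached 1 TPM, so MLYCD passed the filter through its shGPER libraries, and its rise was largely fixed by the filter. Its difference of 0.62 (SE 0.12, limma, adjusted p = 0.00117) was not called after quantile normalization (0.16, adjusted p = 0.235) and was 0.38 without the GC trend.

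Of 6 genes of amino acid metabolism, 4 were tested. GCSH and AMT encode the H and T proteins of the glycine cleavage system, which breaks glycine down in the matrix. GCSH had 31.80, 29.87 and 31.06 TPM in shGPER libraries, against 57.50, 57.82 and 63.85 TPM in shControl libraries, a difference of -0.93 (SE 0.06). AMT had 3.02, 2.56 and 5.19 TPM in shGPER libraries, against 1.19, 1.33 and 1.45 TPM in shControl libraries, a difference of 0.94 (SE 0.20), with shGPER library 3 well above the other shGPER libraries. The ratio of GCSH to AMT TPM was 9.39 ± 3.01 in shGPER libraries and 45.3 ± 2.65 in shControl libraries (SD, n = 3 each). Both are uncertain as single genes, since AMT shares 60.7% of its 31-nt words with other genes and GCSH 16.0%, and neither was called without the GC trend (adjusted p = 0.0527 and 0.878). GLS2, the glutaminase that makes glutamate, had 3.37, 4.72 and 3.47 TPM in shGPER libraries, against 1.23, 1.44 and 1.92 TPM in shControl libraries, and rose by 0.94 (SE 0.15). ALDH5A1, which oxidizes succinic semialdehyde from the GABA pathway, had 3.93, 5.23 and 5.56 TPM in shGPER libraries, against 8.21, 9.01 and 8.93 TPM in shControl libraries, and fell by 0.73 (SE 0.13), or by 0.30 without the GC trend (adjusted p = 0.0437). The untested members were AASS, of lysine breakdown, at 0.20 to 0.24 TPM in shGPER libraries and 0.03 to 0.09 TPM in shControl libraries, and GATM, of creatine synthesis, at 0.54 to 1.02 TPM in shGPER libraries and 0.17 to 0.34 TPM in shControl libraries.

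The remaining 6 members are enzymes of other kinds. CKMT1A and CKMT1B encode the ubiquitous mitochondrial creatine kinase, which passes the phosphate of ATP to creatine, and are near-identical copies. In GRCh38 CKMT1B lies at chr15:43593054-43604901 and CKMT1A at chr15:43692886-43699222, both on the plus strand. CKMT1A shares 68.6% of its 31-nt words with CKMT1B, so the division of reads between them is uncertain. CKMT1B had 18.70, 20.85 and 16.55 TPM in shGPER libraries, against 4.07, 4.48 and 5.05 TPM in shControl libraries, and rose by 1.83 (SE 0.11; adjusted p = 1.27e-06). CKMT1A, not tested, had 0.84, 1.65 and 3.13 TPM in shGPER libraries, against 0.58, 0.90 and 0.21 TPM in shControl libraries, with overlapping groups. The summed TPM of both copies did not overlap between the groups and was 20.6 ± 1.67 in shGPER libraries and 5.10 ± 0.391 in shControl libraries (SD, n = 3 each), 4.04-fold higher in shGPER.

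PDE2A, a phosphodiesterase of cyclic nucleotides, had 12.23, 8.43 and 7.42 TPM in shGPER libraries, against 3.79, 2.32 and 2.27 TPM in shControl libraries. The groups were apart but each held a high library 1, and PDE2A rose by 1.45 (SE 0.21; adjusted p = 0.000169), or by 0.66 without the GC trend (adjusted p = 0.0443). ABHD10, a depalmitoylase, had 3.81, 4.43 and 4.34 TPM in shGPER libraries, against 16.16, 16.90 and 15.93 TPM in shControl libraries, and fell by 1.74 (SE 0.09), or by 0.90 without the GC trend. DHRS2, a short-chain dehydrogenase, had 1.69, 2.39 and 1.40 TPM in shGPER libraries, against 4.64, 4.29 and 3.89 TPM in shControl libraries, and fell by 0.91 (SE 0.15). HSD3B1, an enzyme of steroid synthesis, had 1.06, 2.38 and 2.18 TPM in shGPER libraries, against 4.65, 1.69 and 2.64 TPM in shControl libraries. The groups overlapped and its difference of -0.44 (95% interval -1.11 to 0.23) was not called, but it was called lower without shControl library 2 (-0.69, adjusted p = 0.0392) and after quantile normalization (-0.77, adjusted p = 0.021).

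The direction of the members went with the base composition of their transcripts. GC content had a median of 56.7% in the 11 members that rose and 44.0% in the 23 that fell, beside 59.6% and 44.3% for all called genes of each direction. No member that rose was under 50.7% GC, and no member that fell was over 55.0%. With the tested genes divided by GC content into 10 bins of near-equal size, all 16 members in the 4 lowest bins fell. In those 4 bins 73.0 to 94.5% of all tested genes fell. All 7 members in the 3 bins from 55.4 to 64.1% GC rose, where 75.9 to 90.1% of all tested genes rose. In the bin from 51.2 to 55.3% GC, 3 members rose and 6 fell, beside 55.2% and 44.2% of all tested genes. Taking for each member the share of the other genes in its bin, 20.6 of the 35 would have fallen and 13.96 risen, against 23 and 11 observed. The rank correlation between GC content and difference was 0.72 across the 35 members and 0.59 across 1591 other tested genes, where genes share libraries and are not independent replicates.

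**Figure D3:**
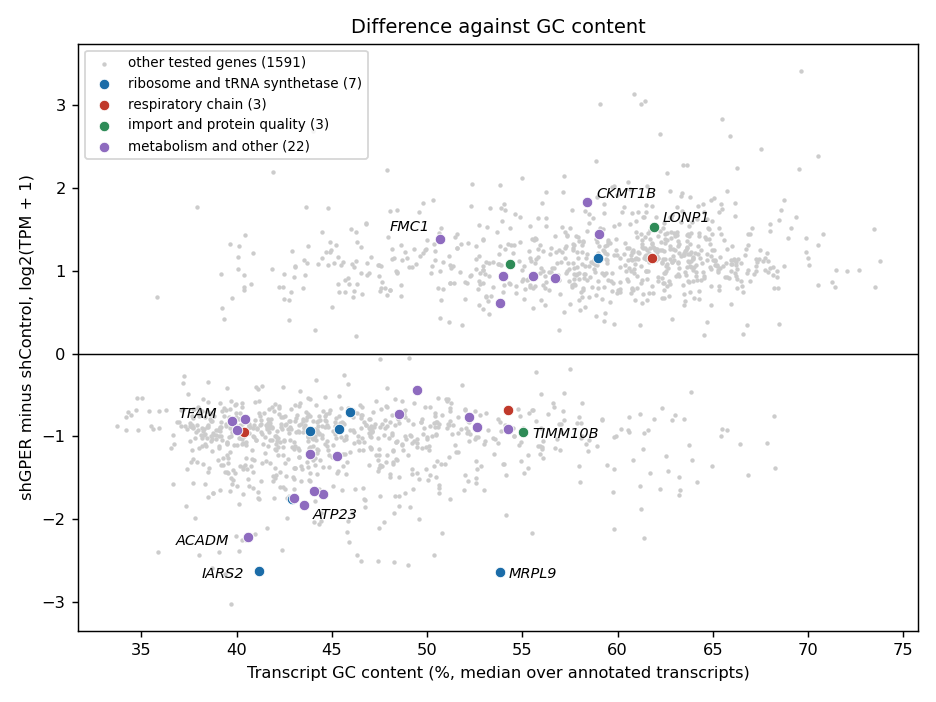
Difference between shGPER and shControl on the log2(TPM + 1) scale against transcript GC content for the 35 tested members (coloured by class) and 1591 other tested genes (grey). Members with a GC content up to 48.5% lie below 0; MRPL9, at 53.8% GC, and TIMM10B, at 55.0%, lie below 0 in a range where 55.2% of tested genes rose.

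With each library's GC trend removed, 26 of the 34 called members kept their call and direction, 10 higher and 16 lower, and 8 lost their call. With the replicate block added, 28 kept it and 6 lost it, and CHCHD1 (adjusted p = 0.0488) and AMT (0.0424) were called again. Among the 8 were CHCHD1, WARS2, TMEM126A, GCSH, AMT, TFAM and PRIMPOL. The median of the tested members without the GC trend was -0.12, beside 0.01 for all genes. MRPL9 (-2.87), IARS2 (-1.73), TIMM10B (-1.33), ACADM (-1.31) and DHRS2 (-1.19) were the lowest, and FMC1 (1.55) and CKMT1B (1.10) the highest. The trend was fitted to this table, and what its removal takes from a true difference was not tested.

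**Figure D4:**
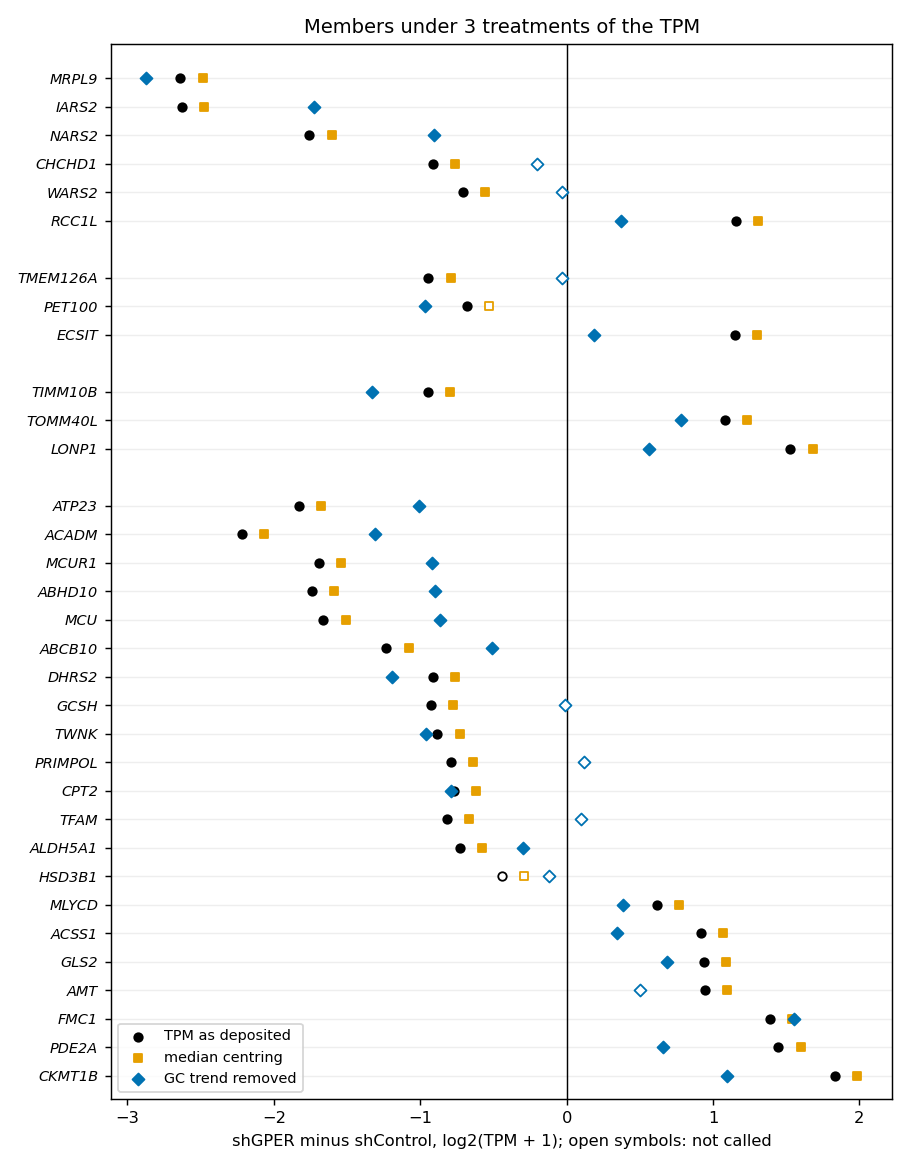
Difference of 33 of the 35 tested members on the log2(TPM + 1) scale from TPM as deposited (black circles), after median centring (orange squares) and with the GC trend removed (blue diamonds); open symbols were not called. Centring moved all members by 0.15 to the right, and removing the GC trend brought 7 of the called members drawn below the threshold, among them TFAM and PRIMPOL, which lie at 0.10 and 0.12.

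The median coefficient of variation was 14.0% in shGPER libraries and 9.83% in shControl libraries over the 11 members that rose. Over the 23 that fell it was 11.1% in shGPER libraries and 4.27% in shControl libraries. Of the 11 that rose, 6 had their highest shGPER value in library 2 and 6 their lowest in library 1. Among the 23 that fell, shGPER libraries 1, 2 and 3 held the highest value for 8, 7 and 8 genes.

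Related pathways were thinly represented. The table held 4 of 25 genes of mitochondrial biogenesis and mitochondrial DNA transcription and replication, of which 1 rose and 3 fell. ESRRA, an orphan nuclear receptor that acts with PGC-1 coactivators on mitochondrial genes, had 59.38, 63.14 and 64.51 TPM in shGPER libraries, against 26.75, 26.25 and 25.56 TPM in shControl libraries, and rose by 1.22 (SE 0.06). GABPB1, the partner subunit of GABPA, had 16.84, 15.33 and 15.58 TPM in shGPER libraries, against 32.29, 35.31 and 34.29 TPM in shControl libraries, and fell by 1.05 (SE 0.07). The others were TFAM and TWNK. ESRRA has 64.1% GC, where 90.1 to 90.8% of all tested genes rose, and GABPB1 has 44.2%, where 85.2% fell. Both ESRRA (0.17) and GABPB1 (-0.26) kept their call without the GC trend.

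All 3 listed of 21 genes of the mitochondrial stress response rose, LONP1 as above, TRIB3 by 1.27 (SE 0.09) and GDF15 by 1.18 (SE 0.08). All 3 have 61.5 to 62% GC, in bins where 86.5 and 90.1% of all tested genes rose, and without the GC trend TRIB3 was at 0.29 and GDF15 at 0.23, both still called. TRIB3, a pseudokinase of the integrated stress response, had 56.09, 69.46 and 68.69 TPM in shGPER libraries, against 26.54, 26.68 and 25.42 TPM in shControl libraries. GDF15, a stress cytokine, had 54.47, 58.41 and 66.32 TPM in shGPER libraries, against 26.63, 25.94 and 24.82 TPM in shControl libraries. The mitophagy list had 1 of 13 genes in the table, the kinase gene TBK1, at 12.36, 9.04 and 18.31 TPM in shGPER libraries and 22.82, 19.89 and 19.91 TPM in shControl libraries. Its difference was -0.67 (SE 0.21, limma, adjusted p = 0.0131). Without the GC trend the sign changed, to 0.25 (adjusted p = 0.384), and TBK1 lost its call there and after quantile normalization. Of 25 glycolysis and lactate genes PDK4, the kinase that inhibits pyruvate dehydrogenase, was listed and rose by 0.96 (SE 0.12), by 1.89 without the GC trend and by 0.64 after quantile normalization. No gene was listed from the 13 mitochondrially encoded mRNAs, 21 genes of fusion, fission and cristae, 25 of the tricarboxylic acid cycle, or 20 cytosolic tRNA synthetases, which were not analysed here.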

How the data were processed

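Libraries were grouped by their titles. The values the authors deposited are TPM per gene; fastp, HISAT2, RSEM and the build hg38 are named, without order or settings, per the submitters' processing notes, and per the labels' protocols a stranded mRNA kit was used. Use of strand in counting is not stated there. TPM carry no depth, so no count model, counting interval or detection limit was used. Log2(TPM + 1) was fitted on the whole table with limma 3.58.1 in R 4.3.3 (intensity trend, no covariate, two-sided, Benjamini-Hochberg threshold 0.05) for 1651 genes with at least 1 TPM in at least 3 of 6 libraries. This scale understates changes of low genes. GC content and shared 31-nt words come from GENCODE 29 transcripts (2078 of 2128 IDs matched, all 38 members among these) and promoter windows from RefSeq, both with Python 3.11.15. GC trends were natural splines with 3 degrees of freedom on each library's deviations from gene means. The naming rule took all members of the translation, respiratory chain and import classes. Of the other class, the rule took up to 8 rises and 8 falls that averaged 5 TPM or more in either group without overlap, and members not called. The remaining members of that class were named too. Over all classes, however, 2 of the 38 members entered every count but are not reported singly here. The members and lists were chosen with earlier results of these data known.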

Additional observations from a re-analysis of the deposited data

How the results depend on the processing

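Among the 34 called members, every call and direction held with pseudocounts of 0.1 and 0.5, without a filter, without an intensity trend, with a robust prior and without any 1 library; those that fell outside a 5 TPM filter were not tested there. PET100 (median centring, quantile normalization) and MLYCD (quantile normalization) lost their call. The 5 TPM filter left 438 genes higher in all, 7 members higher and 3 higher in metabolism and other. Membership by gene description alone gave 4 members higher and 9 lower. Without the GC trend 512 genes rose and 506 fell in all, 3 ribosome and tRNA synthetase members fell, TFAM (0.10), PRIMPOL (0.12) and TBK1 (0.25) were slightly above 0 and not called, and with the replicate block added 493 rose and 498 fell. In respiratory chain members 1 fell, not 2, after centring, after quantile normalization and without the GC trend. The causes were not tested. Same-numbered libraries of both groups did not deviate together (correlations 0.03, -0.09 and 0.01 across 1651 genes). No pairing by number was seen, though such correlations cannot exclude a pairing with little shared effect on expression. With the replicate number as a block 11 members rose and 23 fell, as without it. Calls rest on 3 libraries a group of unknown depth.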

Other observations

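A further 86 protein-coding genes of the table had a mitochondrial word in their ontology text outside the membership rule and were not described here. The rule also set aside 5 rows of other biotypes.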
